A study of Mus musculus with 6 samples.

Results

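The SIBLING genes (small integrin-binding ligand N-linked glycoproteins) are 5 neighbouring genes of mouse chromosome 5 that encode acidic, secreted phosphoproteins of bone and dentin. They were taken by symbol from the deposited count tables: Ibsp, Spp1, Dmp1, Mepe and Dspp, 5 of 23420 genes. The tables hold RNA sequencing of mouse palate at embryonic day 14.5, dissected from the part that becomes the anterior hard palate, in C57BL/6 embryos. Control embryos were Shox2Cre/+;Nkx2.5F/F and mutant embryos Shox2Cre/-;Nkx2.5F/F, with 3 libraries each. Both groups thus carried the Cre allele at Shox2 and 2 floxed Nkx2-5 alleles, and the genotype labels differ only in the other Shox2 allele. The controls are titled WT but carry Cre at 1 Shox2 allele. Whether each library came from 1 embryo or a pool is not stated, and the p-values below rest on the differences among these 6 libraries.

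In intramembranous bone, such as the palatine process of the maxilla, mesenchymal cells condense, switch on the transcription factors Runx2 and Sp7 and then secrete a collagen I matrix that mineralizes. The SIBLING proteins are laid into that matrix. They carry an integrin-binding tripeptide and many phosphorylated serines, and they bind calcium and hydroxyapatite. Ibsp (bone sialoprotein) marks osteoblasts at the onset of mineralization, Dmp1 and Mepe are best known from osteocytes, and Dspp is the main non-collagenous protein of dentin. Spp1 (osteopontin) is the least tied to bone, since macrophages, osteoclasts and many epithelia also make it.

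The groups could be told apart by their target gene. Shox2 lay between 68.2 and 88.2 CPM in the controls and between 3.13 and 5.3 CPM in the mutants, where CPM are read counts relative to library size after scaling by the trimmed mean of M values (TMM). Total counts, rounded to 6 digits, were 81950400 to 134813000 in the controls and 52668200 to 53331400 in the mutants, so that depth and genotype cannot be told apart. Genes of palatal mesenchyme were present in both groups, for example Prrx1 at 1061 CPM on average in the controls and 844 CPM in the mutants. In edgeR's quasi-likelihood test 45.8% of 16604 tested genes had an adjusted p under 0.05, 21.7% lower and 24.1% higher in the mutant. The groups did not overlap for 58.9% of them. Ibsp, Spp1, Dmp1 and Mepe were called lower, Mepe having passed the filter on low counts through the controls alone, and Dspp was not tested. Every control was above every mutant for Ibsp and Dmp1, while the groups of Spp1 overlapped. Of all tested genes, 29.2% had every control above every mutant. Mepe and Dspp had that order too, but the filter fixed it in advance for Mepe, and Dspp is not among the tested genes. In bulk tissue, fewer cells that express a gene and less RNA per cell cannot be told apart.

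Ibsp, the most abundant member per length of transcript, fell by a factor of 45.4 between the group means. The controls, in the order of replicates 1, 2 and 3, had 303, 2019.6 and 1616 CPM. In mutant replicates 1, 2 and 3 it had 4.51, 23.6 and 58.6 CPM, from 248, 1276 and 3150 counts. Every control was above every mutant, and the lowest control was still 5.17-fold above the highest mutant. Group means were 1313 ± 898 and 28.9 ± 27.5 CPM (SD, n = 3 each). On the log2 scale the fitted change was -5.51 (SE 1.08, edgeR adjusted p = 0.0057). Both groups were uneven, with control replicate 2 at 6.67-fold control replicate 1 and mutant replicate 3 at 13.0-fold mutant replicate 1.

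Dmp1, an osteocyte and odontoblast protein that nucleates mineral, followed Ibsp at a lower level. Its values were 2.21, 38.5 and 52.8 CPM in the controls and 0.218, 0.906 and 1.23 CPM in the mutants. The groups did not overlap, but control replicate 1 stood only 1.8-fold above mutant replicate 3. On the log2 scale the change was -5.32 (SE 1.17, edgeR adjusted p = 0.0088). By limma-voom the change of -4.98 was not called (adjusted p = 0.231). After subtraction of each group's mean from log2 CPM, Dmp1 and Ibsp had a Pearson r of 0.89 over the 6 libraries, which share the low replicate 1 of each group.

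Mepe, an osteocyte glycoprotein whose acidic fragment inhibits mineralization, was read in every control and in no mutant. It had 55, 330 and 206 counts in the controls and 0 counts in each mutant, or 0.68, 3.27 and 1.55 CPM against 0. Against a floor of 3 counts over the mutant group, its level per total count was at least 97.3-fold lower in the mutant. Since only the controls carried Mepe past the filter, it had to differ. Its edgeR adjusted p was 0.00339.

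Dspp, which is cut into dentin sialoprotein and dentin phosphoprotein, was close to the limit of detection. The controls had 12, 34 and 43 counts and the mutants 0, 2 and 0 counts. No mutant reached the lowest control. Pooled over libraries the level per total count was 21.99-fold lower in the mutant (exact 95% interval 5.91 to 184, counting error only). Dspp was left out of the test because control replicate 1, at 0.146 CPM before TMM scaling, fell short of the 0.148 CPM that the filter asked of 3 libraries. With no filter on low counts Dspp changed by -4.31 on the log2 scale (SE 1.10, edgeR adjusted p = 0.0158).

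Spp1 differed from the other 4 members in that its groups overlapped. The controls, in the same order, had 5.03, 87.4 and 205.9 CPM. The mutants had 13.6, 5.99 and 6.87 CPM. Control replicate 1 was thus below every mutant library, at 0.572 of the mutant mean, while control replicates 2 and 3 were far above them. Group means were 99.5 ± 101.0 and 8.80 ± 4.14 CPM (SD, n = 3 each). The fitted change was -3.5 on the log2 scale (SE 1.10, edgeR adjusted p = 0.0347). This call rested on single libraries. It was not kept without control replicate 2 (adjusted p = 0.0599) or 3 (0.102), or without mutant replicate 1 (0.0658), 2 (0.114) or 3 (0.109), and only the fit without control replicate 1 kept it (0.00118). It was also not kept by limma-voom (adjusted p = 0.343).

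A call on overlapping groups was rare. Of the 7606 genes called, 63 had groups that overlapped (0.828%). The order seen for Spp1, with control replicate 1 below every mutant and the other controls above every mutant, occurred in 235 tested genes. Of those 235, 1 was called lower by edgeR, and it was Spp1.

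**Figure D1:**
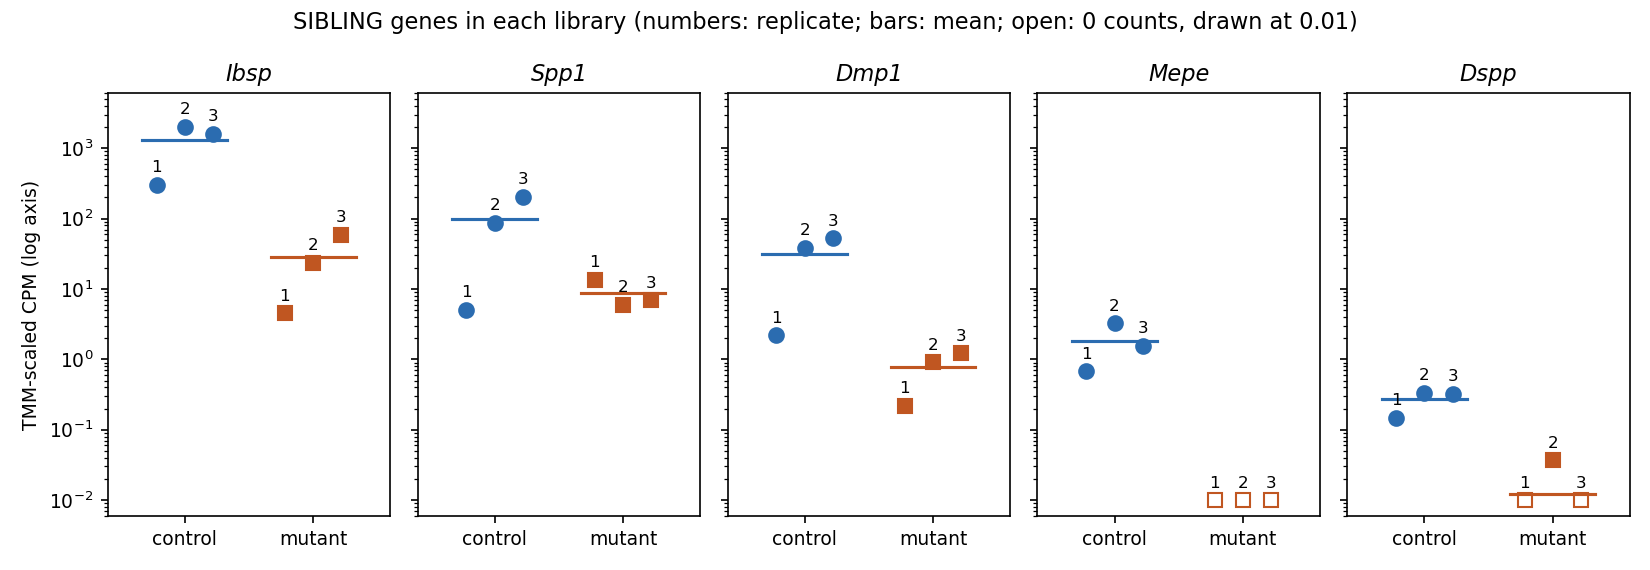
TMM-scaled CPM (log axis) of the 5 SIBLING genes in the 3 control (circles) and 3 mutant (squares) libraries; numbers are replicates, horizontal bars are group means, and open symbols mark 0 counts, drawn at 0.01. Control replicate 1 is the lowest control for every gene, and for Spp1, at 5.03 CPM, it lies under all 3 mutants.

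The spread within groups was itself large for these genes. Among 13632 genes with an average log2 CPM of at least 1, the median SD of log2 CPM over the controls was 0.117. Spp1 had a control SD of 2.80, Dmp1 2.51, Ibsp 1.5 and Mepe 1.11. Of the 13632 genes, 99.99% had a lower control SD than Spp1, 99.96% than Dmp1, 99.4% than Ibsp and 98.6% than Mepe. Mepe itself, at an average log2 CPM of 0.0313, is not among the 13632 and is set against genes with more counts. In the mutants the SD was 1.87 for Ibsp, 1.26 for Dmp1 and 0.629 for Spp1, where the median gene had 0.127. The low library was replicate 1 of the controls for all 5 members and replicate 1 of the mutants for Ibsp and Dmp1. Spp1 was instead highest in mutant replicate 1, at 2.26-fold mutant replicate 2 and 1.97-fold mutant replicate 3. Mutant replicate 1 also stood apart in its counts, of which 99.7% were even among values from 5 to 50, against 63.6% to 73.0% in the other 5 libraries. The part of this in the Spp1 value was not tested.

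Per length of transcript, the family's output was mostly Ibsp in every library but 1. Levels were divided by the exonic length in GENCODE M21, which was 2.068 kb for Ibsp, 1.648 kb for Spp1, 2.764 kb for Dmp1, 1.682 kb for Mepe and 4.431 kb for Dspp. The 5 genes summed to 151, 1046 and 927 CPM per kb in the controls and to 10.5, 15.4 and 32.97 CPM per kb in the mutants. Ibsp made up 97.2%, 93.4% and 84.3% of that sum in the controls. In the mutants its share was 20.8%, 74.2% and 86.01%. Spp1 made up 2.03%, 5.07% and 13.5% in the controls and 78.5%, 23.6% and 12.6% in the mutants. Mutant replicate 1 was therefore the only library in which osteopontin transcripts outweighed those of bone sialoprotein, and mutant replicate 3 had nearly the composition of control replicate 3.

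**Figure D2:**
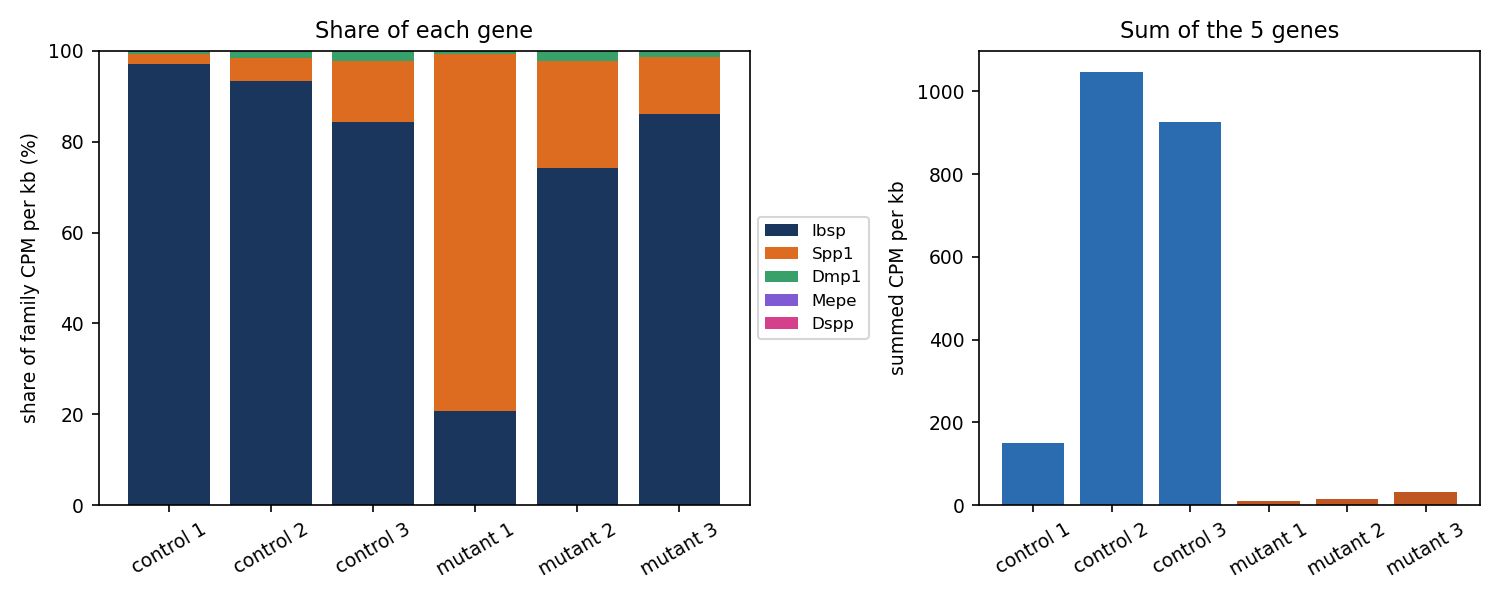
Left, share of each SIBLING gene in the family's summed CPM per kb in each library (bars stacked to 100%; Mepe and Dspp are too small to see). Right, the sum itself in CPM per kb; it is 151 to 1046 in the controls and 10.5 to 32.97 in the mutants.

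Ratios between members do not depend on how libraries are scaled, and 3 pairs had at least 10 counts in every library. The log2 ratio of Ibsp to Spp1 was 5.91, 4.53 and 2.97 in the controls and -1.59, 1.98 and 3.09 in the mutants. The groups overlapped (change of the mean -3.31, exact permutation test, two-sided, p = 0.2, adjusted over 3 pairs p = 0.2). The log2 ratio of Ibsp to Dmp1 was 7.1, 5.71 and 4.94 in the controls and 4.37, 4.7 and 5.58 in the mutants, again overlapping (change -1.03, exact permutation p = 0.2, adjusted p = 0.2). The log2 ratio of Spp1 to Dmp1 did not overlap, at 1.19, 1.18 and 1.96 in the controls and 5.96, 2.73 and 2.48 in the mutants. Its change of 2.28 had an exact permutation p = 0.1 (adjusted p = 0.2), the smallest that 3 against 3 libraries allow. With 0.1 as the smallest possible p, no pair could pass 0.05. The test therefore cannot decide whether these 3 members fell by different factors.

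**Figure D3:**
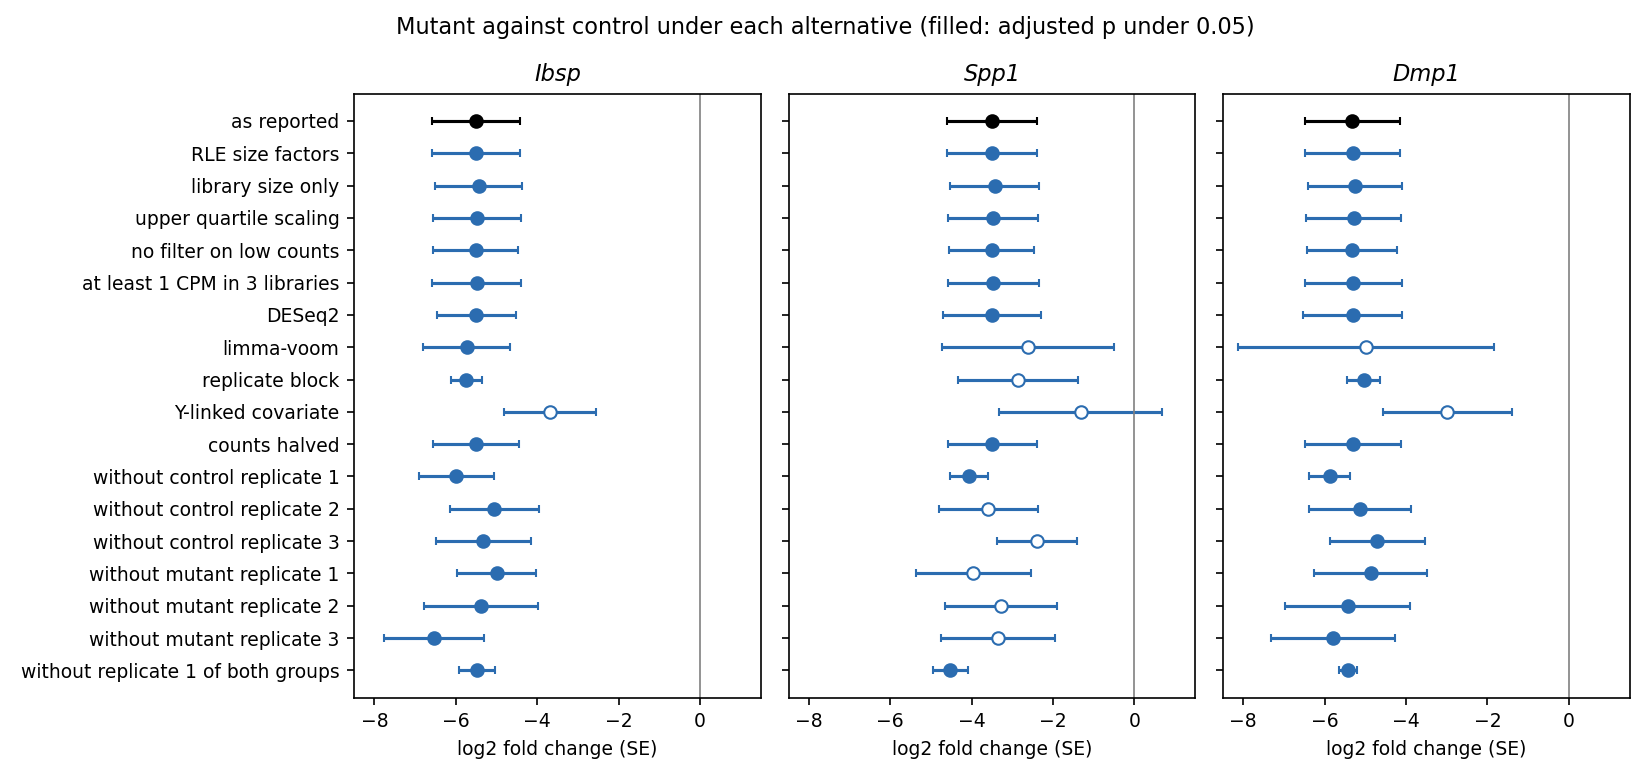
Log2 fold change with SE of Ibsp, Spp1 and Dmp1, mutant against control, as reported (black) and under 17 alternatives (blue); filled points have an adjusted p under 0.05. Ibsp lies between -6.55 and -3.69 and Dmp1 between -5.88 and -2.98, while 8 of the 17 alternative points of Spp1 are open.

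The SIBLING genes lie in a row on the plus strand of chromosome 5, within 270.3 kb (104170712 to 104441050, GENCODE M21 on GRCm38). In order they are Dspp (104170712 to 104180127), Dmp1 (104202613 to 104214102), Ibsp (104299171 to 104311469), Mepe (104325329 to 104338611) and Spp1 (104435118 to 104441050). Each is a protein-coding gene, and the counts cover whole genes. In that annotation no exon of another gene overlaps the exons of Dspp, Dmp1, Ibsp or Mepe, while Spp1 shares exonic bases with the unclassified transcript Gm42793 on the same strand.

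Genes beside the cluster had smaller fold changes, of either sign. Of 9 flanking genes listed, 8 were tested, of which 2 were lower, 4 higher and 2 not called, where 21.7% of all tested genes were lower and 24.1% higher. The count of lower genes is near that background. Their median log2 fold change was 0.26, against -0.00433 for all tested genes. Sparcl1, a matricellular glycoprotein gene of the same evolutionary family that lies before Dspp, had 112, 146 and 126 CPM in the controls and 146, 206 and 183 CPM in the mutants (0.48 on the log2 scale, SE 0.15, edgeR adjusted p = 0.0313). Pkd2, a cation channel gene that follows Spp1, was not called (-0.1, SE 0.11). Further out, Nudt9 (-0.3) and Zfp326 (-0.72) fell, Aff1 (1.1), Abcg3 (2.2) and Klhl8 (0.34) rose, and Hsd17b11 (0.18) was not called. The number of flanking genes called higher was 2 without control replicate 1 or 3 or without mutant replicate 2 or 3, and 1 was called lower without mutant replicate 2. The Sparcl1 call was not kept without those same controls (adjusted p = 0.0839 and 0.0834) or mutants (0.105 and 0.0858). The Klhl8 call was not kept without control replicate 1, 2 or 3 or without mutant replicate 2 or 3 (adjusted p from 0.0658 to 0.145). Hsd17b13 was too low to test.

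**Figure D4:**
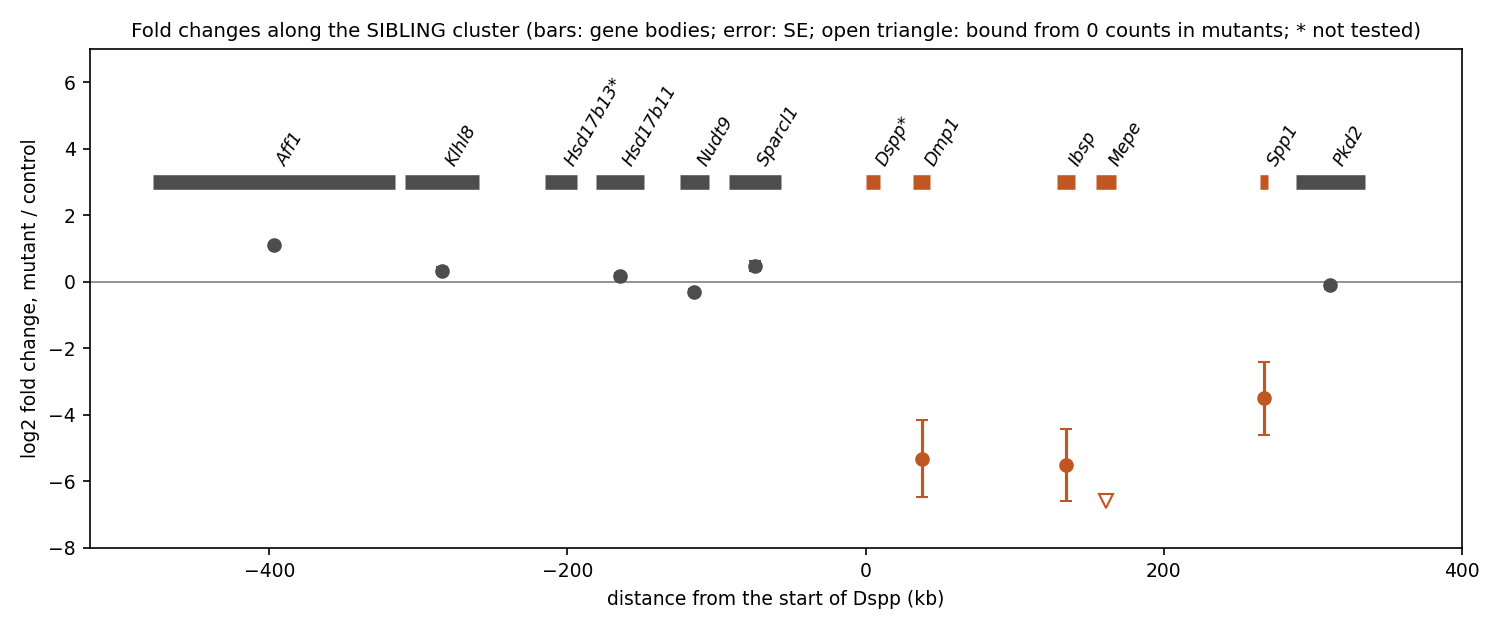
Log2 fold change (mutant over control, SE bars, some smaller than the symbol) against distance from the start of Dspp in kb for the SIBLING genes (orange) and flanking genes (grey) within 600 kb; bars at the top are gene bodies. The triangle is the bound for Mepe from 0 mutant counts, and asterisks mark genes that were not tested. The 3 tested SIBLING genes with mutant counts lie between -5.51 and -3.5, whereas the tested flanking genes shown lie between -0.3 and 1.1.

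Promoter sequence was looked up because the members sit close together and control replicate 1 was the lowest control for each. In the mutants they did not share an order, as replicate 1 was lowest for Ibsp and Dmp1 and highest for Spp1. RefSeq promoters (GRCm38.p6) were found for 4 of the 5 members, with 6 start sites, and Dspp was not matched. The 170 bases before the start site are shown for the start of Dmp1, Mepe and Spp1 that holds a CCAAT box, in lower case, 5′ to 3′. For Ibsp only 30 bases around the box are shown, because GENCODE M21 starts that gene further upstream, at 104299171, and counts 116 of the 170 bases as its first exon. Capitals mark the core of the Runx2 binding motif (TGTGGT) on either strand. They also mark the CCAAT box on either strand where it lies within 80 bases of the start.
Dmp1, chr5:104202447-104202616, plus strand: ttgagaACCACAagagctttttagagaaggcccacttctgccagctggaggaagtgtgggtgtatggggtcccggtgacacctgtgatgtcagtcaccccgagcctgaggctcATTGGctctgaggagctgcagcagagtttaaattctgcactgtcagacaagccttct
Ibsp, chr5:104299223-104299252, plus strand: cacagctgtgATTGGctgttgagaggcgga
Mepe, chr5:104325159-104325328, plus strand: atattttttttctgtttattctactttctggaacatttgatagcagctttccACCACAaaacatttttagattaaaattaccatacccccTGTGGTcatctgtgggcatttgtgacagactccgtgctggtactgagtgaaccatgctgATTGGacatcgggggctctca
Spp1, chr5:104434941-104435110, plus strand: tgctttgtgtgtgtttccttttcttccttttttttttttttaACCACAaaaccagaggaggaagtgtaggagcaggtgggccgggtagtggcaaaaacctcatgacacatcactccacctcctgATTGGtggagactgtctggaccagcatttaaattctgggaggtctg

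A CCAAT box on the opposite strand, read as ATTGG here, stood within 80 bases of the start in 4 of the 6 start sites. Their first base was 57 bases upstream in Dmp1, 54 in Ibsp, 46 in Spp1 and 21 in Mepe, and CCAAT on either strand was found in this window in 15.3% of 32851 mouse start sites. The Runx core was present within 250 bases in 3 of the 6 start sites, those of Dmp1, Mepe and Spp1, against 14.0% of all start sites. Mepe held it in both orientations, 118 and 80 bases upstream. That core was on neither strand in the 250 bases of Ibsp. On either strand TATAAA was found in 3 of 6 start sites (12.4% of all), and in Ibsp it lay 28 bases upstream. Within 40 bases, TTTAAA was found in Dmp1 and Spp1 (1.91% of all start sites). The first and the last of these motifs were chosen after the sequences had been seen. Each match is a description of the sequence, and no binding was measured here.

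Most transcription factors of the osteoblast list fell, each by less than Ibsp or Dmp1. Of 12 listed factors, 9 were lower (21.7% of all tested genes were), none higher and 3 not called, with a median log2 fold change of -0.85. With a Y-linked covariate, described further on, 3 were lower. Runx2, which commits mesenchyme to bone, had 175, 300.1 and 257 CPM in the controls and 91.6, 103.4 and 102.9 CPM in the mutants (-1.3, SE 0.18). Sp7, the zinc finger factor that acts after Runx2, had 97.2, 247 and 209 CPM in the controls and 13.5, 48.3 and 63.1 CPM in the mutants (-2.15, SE 0.57). Their order over the libraries resembles that of Ibsp, with replicate 1 lowest in both groups. The homeobox factors Dlx3 (-1.54), Dlx5 (-1.54) and Dlx6 (-1.81) were lower as well, as were Mef2c (-1.02), Cbfb (-0.64, the partner of Runx2) and Atf4 (-0.37). Msx2 (-0.3), Sox4 (-0.29) and Sp3 (-0.14) were not called. Sp7 was not called without control replicate 2 (edgeR adjusted p = 0.0508) or mutant replicate 2 (0.054). Atf4 was not called without control replicate 2 (0.0776), control replicate 3 (0.0818) or mutant replicate 2 (0.0842).

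Genes that process SIBLING proteins or regulate mineral had fold changes of either sign. Of 17 listed genes, 14 were tested, with 5 lower, 3 higher and 6 not called (median -0.02), against 21.7% lower and 24.1% higher among all tested genes. The count of higher genes is near that background. Phospho1, a phosphatase of matrix vesicles, had 5.95, 25.5 and 17.7 CPM in the controls and 0.509, 0.518 and 1.36 CPM in the mutants (-4.36 on the log2 scale, SE 0.65, edgeR adjusted p = 0.00184). Phex, a membrane protease that binds the acidic peptide of Mepe, fell (-2.99, SE 0.51), as did the proprotein convertase Pcsk5 (-0.67, SE 0.11). Alpl, the phosphatase that removes pyrophosphate, was called lower (-1.26, SE 0.43, edgeR adjusted p = 0.0481) although its groups overlapped, with control replicate 1 at 128 CPM and mutant replicates 2 and 3 at 140 and 149 CPM. Mgp, an inhibitor of calcification, rose from 17.2, 23.5 and 19.4 CPM to 35.1, 46.4 and 45.9 CPM (1.08, SE 0.15). Among enzymes that act on the SIBLING proteins themselves, neither Fam20c, the kinase that phosphorylates them (0.33, SE 0.19), nor Bmp1, a protease that cleaves Dmp1 and Dspp (-0.11, SE 0.12), was called. Tll1, a relative of Bmp1, was higher (1.21, SE 0.25).

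Of 14 receptors and partner proteases, 5 were lower, 3 higher and 6 not called (median -0.06), against 21.7% lower and 24.1% higher among all tested genes. The count of higher genes is again near the background. Cd44, a receptor of osteopontin, rose from 77.2 ± 10.8 to 129.7 ± 22.2 CPM (SD, n = 3 each, log2 fold change 0.75, SE 0.15). Mmp9, a protease that partners Dmp1 and is abundant in osteoclasts, fell by 2.88 on the log2 scale (SE 0.28). Itga9, an integrin subunit that binds osteopontin, fell (-0.59, SE 0.14) and the epithelial subunit Itgb6 rose (1.81, SE 0.44). Itgav, the subunit common to the classical osteopontin receptors, rose slightly (0.28, SE 0.08), while its partner Itgb3 (-0.04, SE 0.15) was not called. Only 2 members were lower without control replicate 2 or 3 or without mutant replicate 2, and 3 without mutant replicate 1 or 3. With the Y-linked covariate 1 was lower and 1 higher.

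Other matrix genes of bone had fold changes of either sign. Of 18 listed genes, 17 were tested, with 4 lower, 4 higher and 9 not called (median -0.15), both counts near the 21.7% lower and 24.1% higher of all tested genes. Those lower were Col22a1 (-5.14), Ifitm5 (-3.8), a membrane protein of mineralizing osteoblasts, Smpd3 (-2.88), a sphingomyelinase needed for mineralization, and Cthrc1 (-1.91). Ifitm5 had 16.6, 86.1 and 64.1 CPM in the controls and 1.96, 4.35 and 5.71 CPM in the mutants, with replicate 1 lowest in both groups as for Ibsp. Collagen I, the bulk of bone matrix, was not called: Col1a2 had 2551, 6602 and 5682 CPM in the controls and 4399, 4272 and 4259 CPM in the mutants. In Col1a2, Col5a1, Col5a2, Sparc and Omd, 5 of the 17, control replicate 1 lay below every mutant and the other controls above every mutant, as for Spp1. That order held for 1.42% of all tested genes. Osteocalcin, a late osteoblast protein, was barely read, with Bglap, Bglap2 and Bglap3 under 1 CPM in every library, and reads of these near-identical copies may not be separable. Bglap3 was among the 4 higher genes (3.23, SE 0.86), with 0, 4 and 8 counts in the controls and 8, 26 and 23 in the mutants. Only the mutants carried it past the filter on low counts, so its call is no support. The small proteoglycan gene Dcn was higher in the mutant (0.71, SE 0.12). Without control replicate 1, 9 members were lower in place of 4, and 2 were higher without mutant replicate 2 or 3.

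Mepe and Dspp belong to osteocytes and odontoblasts, whose other genes were listed too. Of 11 osteocyte genes, 9 were tested, with 3 lower, 3 higher and 3 not called, against 21.7% lower and 24.1% higher among all tested genes. Those lower were Dkk1 (-5.23), Phex (-2.99) and Sost (-2.49), and those higher were Capg (0.88), Cd44 (0.75) and Pdpn (0.41). Sost, a WNT antagonist of mature osteocytes, was low, at 0.779, 3.37 and 1.86 CPM in the controls and 0.291, 0.37 and 0.41 CPM in the mutants. Of 11 genes of odontoblasts and dental papilla, 9 were lower, 1 higher and 1 not called (median -1.33), against the same shares. That list is not made of tooth genes alone. It shares Msx1, Pax9 and Barx1 with the palatal mesenchyme list, of whose 12 genes 6 were lower and 1 higher. Dlx3 is also an osteoblast factor, and Dkk1 is also in the osteocyte list. Fgf3 of the tooth papilla had 4.43, 3.76 and 6.33 CPM in the controls and at most 0.0372 CPM in the mutants. Since only the controls carried Fgf3 past the filter, its call is no support. Among the other genes of the phosphoprotein family to which the SIBLING genes belong, 5 of 11 were tested, with 1 lower and 2 higher. The lower one, Odam, passed the filter on low counts through the controls alone. Smr2, among the higher, reached the filter in every mutant but in no control except replicate 3, so these calls are no support. Odam, of the enamel organ, had 4.91, 1.75 and 3.74 CPM in the controls and 0, 0.111 and 0 CPM in the mutants, and Ambn, an enamel matrix gene, was not called (0.11, SE 0.44).

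Markers of other cell types that can make these proteins moved with genotype, and their part in the SIBLING values was not tested. Their counts stand against 21.7% lower and 24.1% higher among all tested genes. Of 11 osteoclast genes 6 were lower and none higher, and their summed level was 191 to 334 CPM in the controls and 117 to 143 CPM in the mutants. The fusion genes Ocstamp and Dcstamp, which define osteoclasts, had 1.65 and 1.41 CPM on average in the controls and 0.049 and 0.0924 CPM in the mutants. Only the controls carried Ocstamp past the filter on low counts, and Dcstamp reached it in no mutant except replicate 3. The calls of these fusion genes are therefore no support. Of 16 macrophage genes 15 were higher and none lower, and they summed to 99.9 to 172 CPM in the controls and 397 to 519 CPM in the mutants. No macrophage marker was at 0 in any library. The lowest macrophage sum of each group was in its replicate 1. Of 13 epithelial genes all 13 were higher, from sums of 1159 to 1931 CPM in the controls to 6384 to 7278 CPM in the mutants. Hypertrophic cartilage also makes Ibsp and Spp1. Its defining collagen Col10a1 had at most 0.198 CPM in any library, while its markers Pth1r and Ihh, the first shared with osteoblasts, had 209.7 and 6.75 CPM on average in the controls and 71.9 and 2.01 CPM in the mutants. In that list 4 of 10 genes were lower and 1 higher, with sums of 579 to 1051 CPM in the controls and 456 to 466 CPM in the mutants, and 2 were lower without control replicate 2 or 3 or without mutant replicate 1 or 2. Mmp13, a collagenase of that list and of osteoblasts, had 65.8 CPM in mutant replicate 1 and 9.43 and 15.2 CPM in mutant replicates 2 and 3.

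Transcripts of the Y chromosome, which follow the sexes of the embryos in a library, differed between the controls and also between the groups. Their mean log2 CPM over 4 genes was 5.45, 3.09 and 4.36 in the controls, in the order of their replicates, and 5.58, 5.83 and 5.63 in the mutants. The control with the least SIBLING RNA was thus the one nearest to the mutants in Y-linked RNA. With that mean as a covariate in edgeR, Ibsp changed by -3.69 (adjusted p = 0.0511), Dmp1 by -2.98 (adjusted p = 0.199) and Spp1 by -1.31 (adjusted p = 0.647) on the log2 scale. None of these 3 was then called. Every mutant was above every control in that mean, so a fit with this covariate cannot tell Y-linked RNA and genotype apart.

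**Figure D5:**
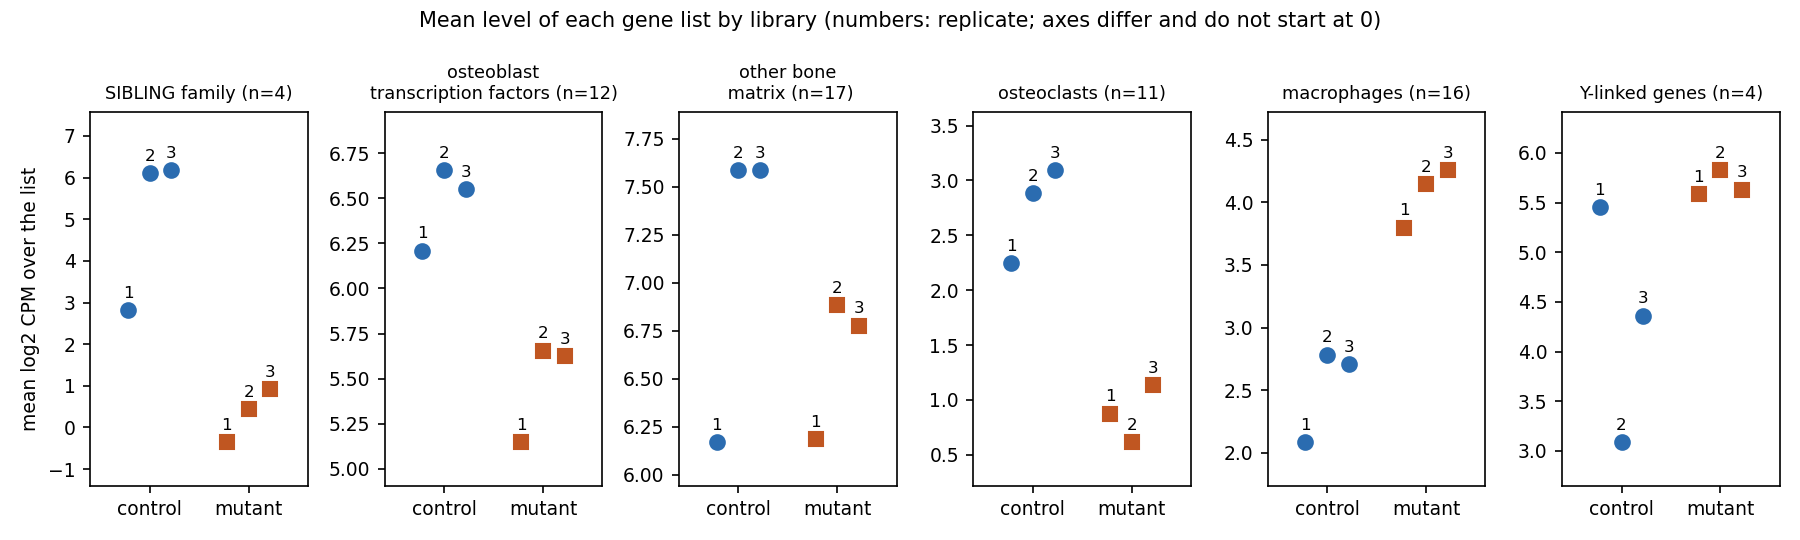
Mean log2 CPM over each gene list in the 3 control (circles) and 3 mutant (squares) libraries; numbers are replicates, n is the number of genes tested, and the axes differ and do not start at 0. For the SIBLING genes, osteoblast factors and other bone matrix, replicate 1 is the lowest of its group in both genotypes, whereas the Y-linked list is highest in control replicate 1, at 5.45, among the controls. In summed CPM, not drawn, other bone matrix was instead highest in mutant replicate 1 among the mutants (16541 against 15859 and 15101).

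The genes most like each member within groups were sought as a description. Group means were subtracted from log2 CPM, and Pearson's r over the 6 libraries was taken for up to 12890 named genes of average log2 CPM at least 1. For Ibsp the nearest were Znhit2, Chn2, Parp16, Panx3 and Mid1ip1 (r from 0.997 to 0.999). Panx3, a channel of osteoblasts and hypertrophic chondrocytes, was the only gene of the 5 that was called. It had 59.8, 227 and 168 CPM in the controls and 6.94, 20.8 and 36.0 CPM in the mutants (-2.83 on the log2 scale, SE 0.66). For Spp1 they were Cyp2j9, Ctsh, Lcp1, Inf2 and Myo1e, and Ctsh, a lysosomal protease, was higher in the mutant (1.49, SE 0.24). For Dmp1 they were Farp2, Gas7, Fuca2, Lactb and Fancc, and for Mepe, which is at 0 in the mutants, Mdfic, Add1, Trhde, Fut8 and Tab2. With 6 libraries and that many genes, values of r this near to 1 occurred also for genes that barely changed, such as Add1 (0.07, SE 0.07). Between members, r within groups was 0.43 for Ibsp with Spp1, 0.77 for Spp1 with Dmp1 and 0.74 for Dmp1 with Mepe.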

How the data were processed

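Whole-number read counts per gene symbol were deposited by the authors, 1 table per library, 6 in all. HISAT2 is named per the file headers of 4 tables, and HISAT2, StringTie and the builds mm9 and mm10 per the submitters' processing notes, without versions. Counter, strand setting and annotation: not given in the sources used here. Low counts are often even, so reads may not be independent, and intervals and floors cover counting error only.

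The deposited counts went unchanged into edgeR 4.0.16 (R 4.3.3): filterByExpr, TMM scaling, quasi-likelihood test of mutant against control over all 16604 genes that passed, Benjamini-Hochberg threshold 0.05. SE is the absolute log2 fold change over the square root of F. DESeq2 1.42.0, limma 3.58.1 (voom), other scalings, filters, halved counts, a replicate block, a Y-linked covariate and left-out libraries were alternatives, 17 in all. The edgeR step was tested on simulated data. Positions and lengths are from GENCODE M21 and promoters from RefSeq, both on GRCm38. Protein features were planned but not run.

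Members and lists were chosen with earlier results of these data known. Genes named are the members, osteoblast factors (1 is not reported here) and flanking genes, up to 4 called genes of smallest p per list, and the 5 genes most like each member. Others (such as Alpl, Tll1, Fam20c, Bmp1, Itgav, Itgb3, Sost, Smpd3, Mmp13 and the collagens) were chosen after their values were seen. No set test was run.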

Additional observations from a re-analysis of the deposited data

How the results depend on the processing

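Mepe, at 0 in every mutant, had to differ wherever it was tested, so the alternatives say nothing of it. Ibsp kept its call under every alternative but the Y-linked covariate (log2 fold change -3.69), and ranged from -6.55 to -5 over the fits that leave out 1 library. Dmp1 was not called with the Y-linked covariate (-2.98) or by limma-voom (-4.98), and ranged from -5.88 to -4.7 with 1 library left out. Spp1 was not called by limma-voom (-2.61), with the replicate block (-2.86) or with the Y-linked covariate (-1.31). With 1 library left out it ranged from -4.07 to -2.4 and kept its call only without control replicate 1. Without replicate 1 of both groups it was -4.52 (edgeR adjusted p = 0.000306). Dspp, untested in the reported fit (pooled log2 ratio -4.46), was called lower with no filter (-4.31), without replicate 1 of both groups (-4.06) and in 4 fits without 1 library (-7.53 to -3.77). In all of these but the fit with no filter it passed through the controls alone, so those calls are no support. The number of genes called lower was 3607, and 2309 with the Y-linked covariate. Of the counts over gene lists, 522 values under the alternatives stayed within 1.5 times the reported count and 56 did not. No ratio between members changed direction. Among single genes named, signs turned without replicate 1 of both groups for Pkd2 (0.051), Inf2 (-0.048), Trhde (-0.14) and Fut8 (-0.060), and with the Y-linked covariate for Ddx3y (-0.23), Kdm5d (-0.059), Mdfic (0.22) and Tab2 (0.030). With 1 library left out, Parp16 ranged from -0.033 to 0.24, Inf2 from -0.021 to 0.18, Trhde from -0.16 to 0.40 and Fut8 from -0.070 to 0.19. None of these was called in the reported fit.

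Whether replicate numbers pair the libraries is not settled by these data. Deviations of same-numbered libraries correlated at 0.126, 0.121 and 0.0757 for replicates 1, 2 and 3. Control replicate 3 correlated more with mutant replicate 2 (0.0949) than with mutant replicate 3, and each other library correlated best with its own number. With the replicate block 3302 genes were lower and 3720 higher, against 3607 and 3999. The SE of the log2 fold change was then 0.381 for Ibsp, 0.411 for Dmp1 and 1.48 for Spp1, against 1.08, 1.17 and 1.10. The cause of these changes was not tested.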
